A study of Mus musculus with 3 samples.

Results

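Histone genes were examined in the embryonic region of wild-type mouse embryos at the early headfold (EHF) stage, as all symbols of the array table that begin with Hist1h to Hist4h, H2af, H3f3, or H1f. This rule gave 72 of 30854 symbols, of which 59 were genes of the histone clusters and 13 were replication-independent variants. Biotinylated RNA of 3 samples was hybridized to 3 Illumina Mouse-6 arrays, numbered replicates 1, 2, and 3, which are the only group of the study. All samples were untreated and wild-type, labelled as strain Cd-1 whereas the methods name ICR, and the embryo had been separated from its extraembryonic part before RNA was taken. Whether each array holds a single embryo or a pool is not stated, so the spread between arrays may be partly technical, and 3 arrays limit the precision of each level. In this bulk tissue, fewer cells of a type and less RNA per cell cannot be told apart.

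Core histones H2A, H2B, H3, and H4 form the nucleosome, and linker histone H1 binds the DNA that enters and leaves it. Cluster genes supply most histone protein during S phase, and their mRNAs usually end in a stem-loop, bound by Slbp, in place of a poly(A) tail. Variant genes lie outside the clusters, are transcribed throughout the cell cycle into polyadenylated mRNAs, and encode proteins such as H3.3, H2A.Z, and macroH2A that mark particular chromatin. The cRNA was prepared with a kit that primes on poly(A), so for cluster genes lower abundance and poorer priming cannot be told apart.

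The 4 well-known promoter motifs of histone genes differ between the families, and the sequences of genes detected on every array are shown for that reason. They were taken from RefSeq (GRCm38.p6), 5′ to 3′ on the strand of the named gene, and hold only bases upstream of the start. Capitals mark CCAAT (the CCAAT box, bound by NF-Y), TATAAA (bound by the TATA-binding protein), ATTTGCAT (the octamer, bound by Oct-1), and AAACACA (the H1 box), each on either strand. They mark these letters at any distance from the start and do not show that the site is bound. The *Hist1h2bj* and *Hist1h2bk* sequences span the whole stretch shared with the divergent neighbours *Hist1h2ag* and *Hist1h2ah*.
Hist1h2bj, chr13:22042950-22043197, plus strand: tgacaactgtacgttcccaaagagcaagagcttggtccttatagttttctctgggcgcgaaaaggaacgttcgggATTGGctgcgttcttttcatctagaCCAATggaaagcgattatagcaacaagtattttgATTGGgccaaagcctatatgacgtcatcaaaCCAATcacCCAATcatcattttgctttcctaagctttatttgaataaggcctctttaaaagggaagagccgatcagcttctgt
Hist1h2bk, chr13:22035644-22035820, plus strand: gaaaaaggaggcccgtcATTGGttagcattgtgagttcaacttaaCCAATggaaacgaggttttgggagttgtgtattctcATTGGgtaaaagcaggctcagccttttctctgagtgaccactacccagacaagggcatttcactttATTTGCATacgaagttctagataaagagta
Hist1h1c, chr13:23738557-23738806, plus strand: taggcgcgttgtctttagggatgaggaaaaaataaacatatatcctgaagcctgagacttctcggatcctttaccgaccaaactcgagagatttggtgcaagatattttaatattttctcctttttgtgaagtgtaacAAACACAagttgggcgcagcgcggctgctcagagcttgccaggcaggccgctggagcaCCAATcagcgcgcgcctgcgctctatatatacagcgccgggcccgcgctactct
Hist1h4i, chr13:22041363-22041612, minus strand: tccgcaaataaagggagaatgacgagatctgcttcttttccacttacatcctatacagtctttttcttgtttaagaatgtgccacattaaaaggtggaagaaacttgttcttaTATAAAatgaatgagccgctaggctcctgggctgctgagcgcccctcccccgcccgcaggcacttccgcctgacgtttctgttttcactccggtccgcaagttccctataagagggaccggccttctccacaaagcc
H2afz, chr3:137864237-137864486, plus strand: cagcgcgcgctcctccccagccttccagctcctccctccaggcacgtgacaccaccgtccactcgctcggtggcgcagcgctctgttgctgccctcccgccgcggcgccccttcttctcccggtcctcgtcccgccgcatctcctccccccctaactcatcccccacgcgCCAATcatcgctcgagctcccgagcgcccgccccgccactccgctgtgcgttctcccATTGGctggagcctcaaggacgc

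Promoter windows of 300 bases, 250 of them before the start, were found for 64 of the 72 symbols, 65 windows in all, and were compared with 32851 RefSeq windows. CCAAT was present in every cluster window of the H1, H2A, H2B, and H3 families, 6, 17, 13, and 7 windows. It was present in 3 of 11 H4 windows, and in 37.4% of all windows. TATAAA was found in 31 of 54 cluster windows but in 1 of 11 variant windows, that of *H3f3b*, against 13.6% of all windows. The octamer was found in 7 of 17 H2A windows and in 7 of 13 H2B windows, against 1.74% of all windows. AAACACA was found in 5 of 6 windows of cluster H1 genes, against 7.18% of all windows. Split by detection instead of by family, CCAAT stood in 24 of 26 windows of cluster genes detected on every array and in 22 of 28 of the others, and TATAAA in 14 of 26 and in 17 of 28. These counts describe the letters in the windows only, and divergent neighbours share bases. Windows also hold bases after the start, and those of divergent genes less than 250 bases apart run past the neighbour's start. The TATAAA counted for *Hist1h2bk* is not within the stretch shown above.

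**Figure D1:**
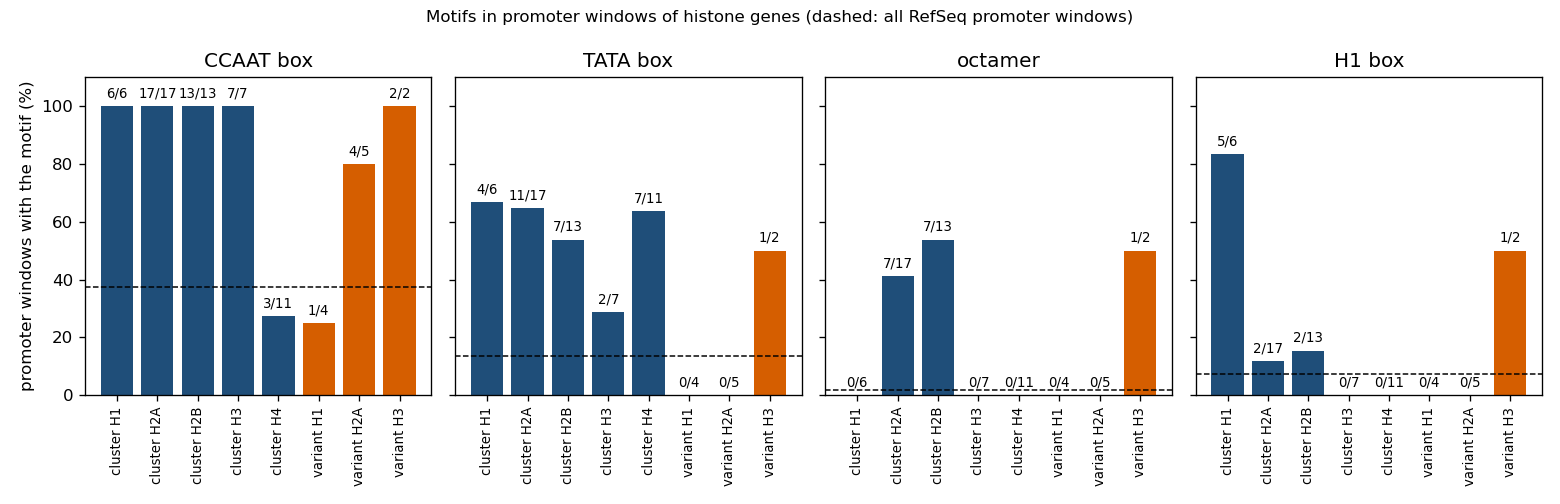
Share of promoter windows (%, vertical axis) that hold each of 4 motifs on either strand, by class and family of the histone genes, with the windows that hold it out of all windows above each bar, and cluster families in blue and variants in orange. The dashed line is the share among all 32851 windows; the CCAAT box is in all windows of 4 cluster families but in 3 of 11 H4 windows.

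The values deposited for each array are a log2 signal per symbol, not normalized between arrays, and a detection p. For a symbol with 1 probe, this p was read as the share of negative-control probes at least as bright. For a symbol with several probes it is a combined value, and how it was combined is not stated, so the same cut may not mean the same for both. A symbol was taken as detected with a detection p under 0.01 on all 3 arrays. Of the 72 histone symbols, 34 were detected, 47.2%, where 20.6% of all symbols were. On single arrays 42, 42, and 37 histone symbols passed on replicates 1, 2, and 3, when 29.2%, 26.6%, and 23.3% of all symbols did. Another 13 passed on 1 or 2 arrays, and 25 passed on none, so that 47 passed at least once, as did 33.0% of all symbols. By class, 26 of 59 cluster symbols (44.1%) and 8 of 13 variant symbols (61.5%) were detected. Within the clusters, H2A genes were detected in 11 of 17 cases, H2B genes in 7 of 15, H3 genes in 4 of 9, H4 genes in 3 of 12, and H1 genes in 1 of 6. The genes lie in 4 clusters, and 24 of 46 symbols of the Hist1 cluster on chromosome 13 were detected, 2 of 9 of the Hist2 cluster on chromosome 3, none of 3 of the Hist3 cluster on chromosome 11, and not the single Hist4 symbol on chromosome 6.

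**Figure D2:**
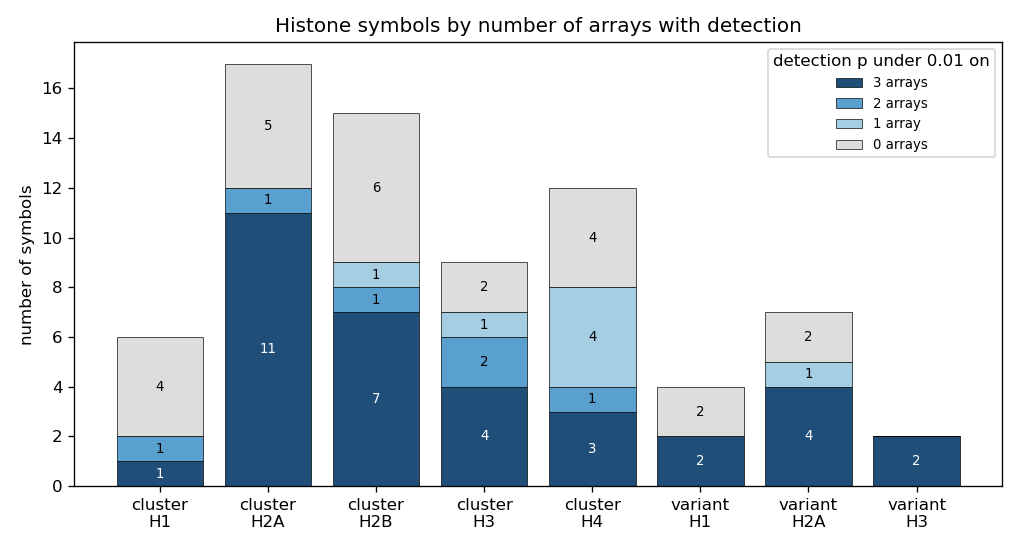
Number of histone symbols (vertical axis) in each class and family, split by the number of arrays on which the detection p was under 0.01. All 3 arrays passed for 11 of 17 cluster H2A symbols, for 1 of 6 cluster H1 symbols, and for the 2 H3 variants.

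For a measure with an error, the normexp background model and quantile normalization were applied, and each log2 value was set against the dimmest 1-probe symbol of its array that had a detection p above 0 and under 0.01. The difference is called the level above background and is given as mean ± SD of 3 arrays. By the one-sided test of limma with Benjamini-Hochberg adjustment over all 30854 symbols, 41 histone symbols were above background, against 25.7% of all symbols. They comprise the 34 detected symbols and 7 more, described below. The median level was 0.64 over the 59 cluster symbols, 3.18 over the 13 variants, and -0.47 over all symbols. The cluster median depended on the processing, from 0.22 without background correction to 1.27 with a lower background level. Probes differ in how well they hybridize, so no gene's level was tested against another's, and the medians do not rank the classes by abundance.

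**Figure D3:**
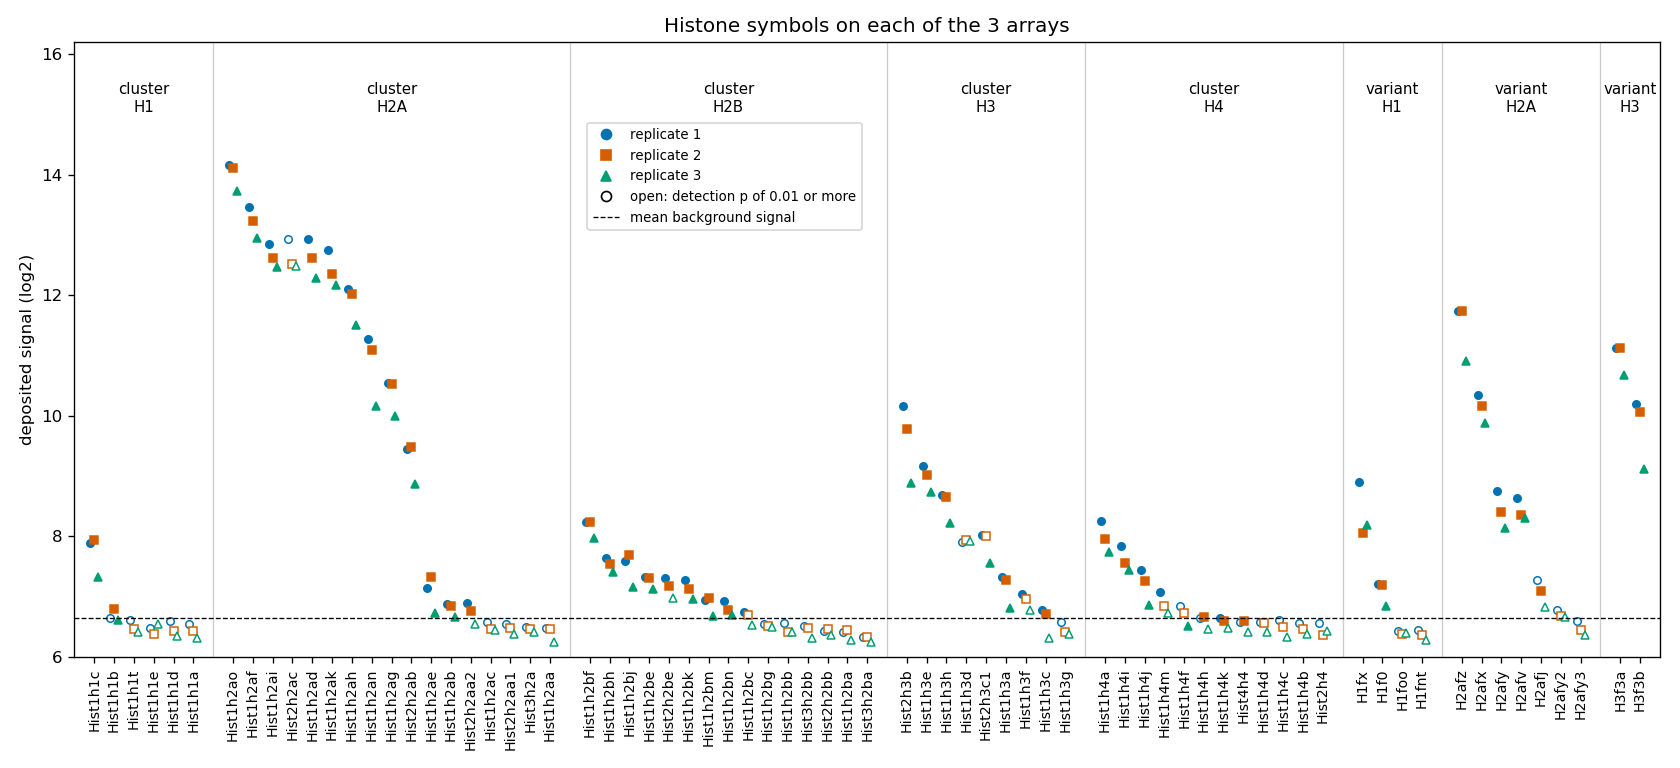
Deposited log2 signal (vertical axis) of the 72 histone symbols on each array, grouped by class and family and ordered by mean signal within a family. Filled symbols have a detection p under 0.01, open ones do not, and the dashed line is the mean of the 3 arrays' background signals; 8 of the 11 detected H2A cluster genes have a mean signal above 10, as do *H2afz*, *H2afx*, and *H3f3a* among the variants.

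Among cluster H2A genes, which encode the canonical H2A that pairs with H2B, 8 *Hist1* genes were far above background on every array. *Hist1h2ao* gave log2 signals of 14.17, 14.12, and 13.73, in the order of the replicates, a level of 9.17 ± 0.14 above background. *Hist1h2af* had signals of 13.46, 13.23, and 12.95, a level of 8.36 ± 0.18. *Hist1h2ai* had signals of 12.85, 12.63, and 12.48, a level of 7.79 ± 0.05. For each of these genes the arrays lay close together, and replicate 3 was the lowest. *Hist1h2ad* had signals of 12.94, 12.62, and 12.29 (level 7.76 ± 0.23), and *Hist1h2ak* of 12.76, 12.36, and 12.18 (7.56 ± 0.18). *Hist1h2ah* had signals of 12.10, 12.03, and 11.51 (level 7.00 ± 0.20). *Hist1h2an* had signals of 11.28, 11.09, and 10.16 (5.92 ± 0.48), and *Hist1h2ag* of 10.55, 10.54, and 9.99 (5.43 ± 0.20). The coding sequences of these genes are nearly identical, and probe sequences were not analysed here, so signal from another copy cannot be told apart from signal of the named gene. *Hist2h2ab* followed with signals of 9.44, 9.48, and 8.86 (4.24 ± 0.25). The remaining detected genes were near background, *Hist1h2ae* at 7.15, 7.33, and 6.73 (1.07 ± 0.52) and *Hist1h2ab* at 6.88, 6.85, and 6.66 (0.45 ± 0.13). *Hist1h2ab* passed the test of limma (adjusted p = 0.00567) but not without replicate 2, when its level was 0.39. Of the other 6 H2A cluster symbols, *Hist2h2aa2* passed detection on replicates 1 and 2 with signals of 6.89, 6.76, and 6.54 (not passing limma with all arrays, but passing without replicate 3, at a level of 0.48, and with the lower background level, at 0.85), and *Hist1h2aa*, *Hist1h2ac*, *Hist2h2aa1*, *Hist2h2ac*, and *Hist3h2a* passed on no array.

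*Hist2h2ac* was bright without being detected. Its signals were 12.94, 12.52, and 12.48, a level of 7.81 ± 0.18 above background, whereas its detection p was 0.129, 0.0955, and 0.0200. The numbers of beads give 2 probes for this symbol, and its combined detection p could be read as the probability of a sum of the p-values of both. On that reading, which the deposited columns do not state, at least 1 probe had a detection p of 0.254, 0.218, and 0.0999 or more on the 3 arrays, and its log2 signal could be at most 6.55, 6.52, and 6.48. If the deposited value is the log2 of a mean of linear signals, the other probe was at 13.93, 13.50, and 13.47 or more. If log2 signals had been averaged, it would have been at 19.33, 18.51, and 18.49, above the limit of 16 for a 16-bit reading. Such a limit would be passed in 23 of 7536 values of symbols with 2 probes, and how the probes of a symbol were averaged is not stated. Signals of single probes were not analysed here, and the cause of the high signal without detection was not tested.

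Cluster H2B genes were detected in 7 of 15 cases, all in the *Hist1* cluster, with levels between 0.46 and 2.88 above background. *Hist1h2bf* had log2 signals of 8.24, 8.24, and 7.98, a level of 2.88 ± 0.07, and *Hist1h2bh* of 7.63, 7.54, and 7.42, a level of 1.98 ± 0.03. *Hist1h2bj* had signals of 7.59, 7.70, and 7.16 (1.88 ± 0.32). These levels were larger than the spread between arrays. *Hist1h2be*, measured by 3 probes, had signals of 7.32, 7.31, and 7.13 (1.49 ± 0.07), and *Hist1h2bk* of 7.27, 7.12, and 6.97 (1.23 ± 0.08). The weakest were *Hist1h2bm*, at 6.95, 6.98, and 6.69 (0.64 ± 0.24), and *Hist1h2bn*, at 6.92, 6.78, and 6.69 (0.46 ± 0.10). Both passed the test of limma (adjusted p = 4.6e-05 and 0.00453), but *Hist1h2bm* did not without replicate 2 (level 0.51), nor did *Hist1h2bn* without replicate 1 (0.37) or without replicate 2 (0.49). *Hist2h2be* passed detection on replicates 1 and 2 (signals 7.31, 7.17, and 6.99), and *Hist1h2bc* on replicate 1 alone (6.75, 6.69, and 6.54). *Hist1h2ba*, *Hist1h2bb*, *Hist1h2bg*, *Hist2h2bb*, *Hist3h2ba*, and *Hist3h2bb*, the last annotated as a pseudogene, passed on no array.

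H2A and H2B genes of the clusters often lie head to head and share the bases between their starts. Among symbols with a promoter window, 6 such pairs had starts separated by 163 to 280 bases. Both genes were detected in 4 pairs, neither in the pair *Hist1h2ba* and *Hist1h2aa*, which is known from testis, and only the H2A gene in the pair *Hist1h2ae* and *Hist1h2bg*. For *Hist1h2ag* and *Hist1h2bj*, whose shared sequence is shown above, the levels were 5.43 ± 0.20 and 1.88 ± 0.32. For *Hist1h2ah* and *Hist1h2bk*, also shown, they were 7.00 ± 0.20 and 1.23 ± 0.08. For *Hist1h2ak* and *Hist1h2bn* they were 7.56 ± 0.18 and 0.46 ± 0.10. For *Hist1h2ad* and *Hist1h2bf* they were 7.76 ± 0.23 and 2.88 ± 0.07. In each of these pairs the H2A symbol was further above its background, but different probes measure the neighbours, so the amounts of the mRNAs cannot be compared from these values.

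Cluster H3 genes, which encode the replication-coupled H3.1 and H3.2, were detected in 4 of 9 cases. *Hist2h3b* had log2 signals of 10.17, 9.79, and 8.88, a level of 4.62 ± 0.57. *Hist1h3e* had signals of 9.17, 9.02, and 8.73 (3.90 ± 0.08), *Hist1h3h* of 8.69, 8.65, and 8.22 (3.35 ± 0.16). *Hist1h3a* had signals of 7.32, 7.28, and 6.81 (1.23 ± 0.40). The undetected H3 symbols were mixed. *Hist1h3d* passed on no array, with signals of 7.91, 7.94, and 7.92 and a detection p of 0.337, 0.0413, and 0.189 from 2 probes. *Hist2h3c1*, with 3 probes, passed on replicates 1 and 3 (8.02, 8.01, and 7.55), *Hist1h3c* on replicates 1 and 2 (6.78, 6.72, and 6.32), and *Hist1h3f*, with 4 probes, on replicate 1 (7.05, 6.96, and 6.78). *Hist1h3g* also passed on none.

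Cluster H4 genes, whose product is the same protein for nearly all copies, were detected in 3 of 12 cases. *Hist1h4a* had log2 signals of 8.26, 7.96, and 7.74 (2.66 ± 0.19), *Hist1h4i*, whose promoter is shown above, of 7.84, 7.55, and 7.44 (2.10 ± 0.15), and *Hist1h4j* of 7.45, 7.25, and 6.86 (1.32 ± 0.39). Replicate 3 gave the lowest signal of each gene. *Hist1h4k* passed on replicates 1 and 2 (6.64, 6.59, and 6.48), *Hist1h4m* on replicate 1 (7.07, 6.85, and 6.73), *Hist1h4f* on replicate 3 (6.84, 6.73, and 6.51, not passing limma with all arrays, but passing without that replicate, at a level of 0.37, and with the lower background level, at 0.73), and *Hist1h4h* (6.64, 6.67, and 6.46) and *Hist4h4* (6.59, 6.59, and 6.41) on replicate 2. *Hist1h4b*, *Hist1h4c*, *Hist1h4d*, and *Hist2h4* passed on none.

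Of the 6 cluster genes of linker histone H1, which compacts the chromatin fibre, *Hist1h1c* (H1.2) was the only one detected on every array. Its log2 signals were 7.88, 7.94, and 7.33, a level of 2.25 ± 0.36. *Hist1h1b* (H1.5) passed on replicates 2 and 3, with signals of 6.65, 6.79, and 6.61 and a level of 0.14 ± 0.26. *Hist1h1a*, *Hist1h1d*, *Hist1h1e*, and the testis gene *Hist1h1t* passed on no array, with mean levels between -0.59 and -0.41. Among the variants of H1, *H1fx* (H1.10) had signals of 8.91, 8.06, and 8.20, a level of 3.18 ± 0.47, and was the only detected histone symbol with its lowest signal on replicate 2. *H1f0*, known from cells that leave the cycle and differentiate, had signals of 7.21, 7.19, and 6.84, a level of 1.13 ± 0.26. *H1foo*, the oocyte linker histone, and *H1fnt*, that of spermatids, were undetected, with levels of -0.61 ± 0.13 and -0.66 ± 0.20.

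Both genes of the replication-independent H3.3, which can be deposited outside S phase, were detected. *H3f3a* had log2 signals of 11.13, 11.13, and 10.68, a level of 6.07 ± 0.12. *H3f3b* had signals of 10.19, 10.07, and 9.13, a level of 4.82 ± 0.49. The genes encode the same protein from different mRNAs, and each was measured by 2 probes.

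Among H2A variants, *H2afz* (H2A.Z.1, which replaces H2A near promoters) had log2 signals of 11.74, 11.75, and 10.91, a level of 6.57 ± 0.35. *H2afv* (H2A.Z.2) had signals of 8.63, 8.35, and 8.31, a level of 3.24 ± 0.11. *H2afx*, whose phosphorylated form marks DNA breaks and whose mRNA is known with and without a poly(A) tail, had signals of 10.35, 10.16, and 9.88, a level of 5.18 ± 0.10. These levels exceeded the spread between arrays many times over. *H2afy* (macroH2A1, enriched on the inactive X chromosome) had signals of 8.75, 8.41, and 8.14, a level of 3.25 ± 0.20. Its relative *H2afy2* (macroH2A2), with 2 probes, had signals of 6.77, 6.68, and 6.66 and did not pass detection on any array (level 0.20 ± 0.11, adjusted p = 0.33 by limma). It passed limma with the lower background level, at 0.83. *H2afj* passed on replicate 2 alone, with signals of 7.27, 7.09, and 6.83 from 3 probes. *H2afy3*, annotated as a pseudogene, passed on none (level -0.52 ± 0.29).

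In 7 cases a symbol was above background by limma without being detected on every array, namely *Hist2h2ac*, *Hist1h3d*, *Hist2h3c1*, *Hist2h2be*, *Hist1h3f*, *Hist1h4m*, and *H2afj*. All 7 have several probes, for which the detection p is combined. Of the 48 histone symbols with 1 probe, 26 were detected and the same number passed limma, and of the 24 with several probes, 8 were detected and 15 passed limma. Over all 30854 symbols, 6357 were detected, 7938 passed limma, and 6069 did both, so calls without detection were not particular to histone symbols. No detected histone symbol failed the test of limma. For symbols with 1 probe, the background level was set by the same detection cut, so their detection and limma calls are not independent.

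**Figure D4:**
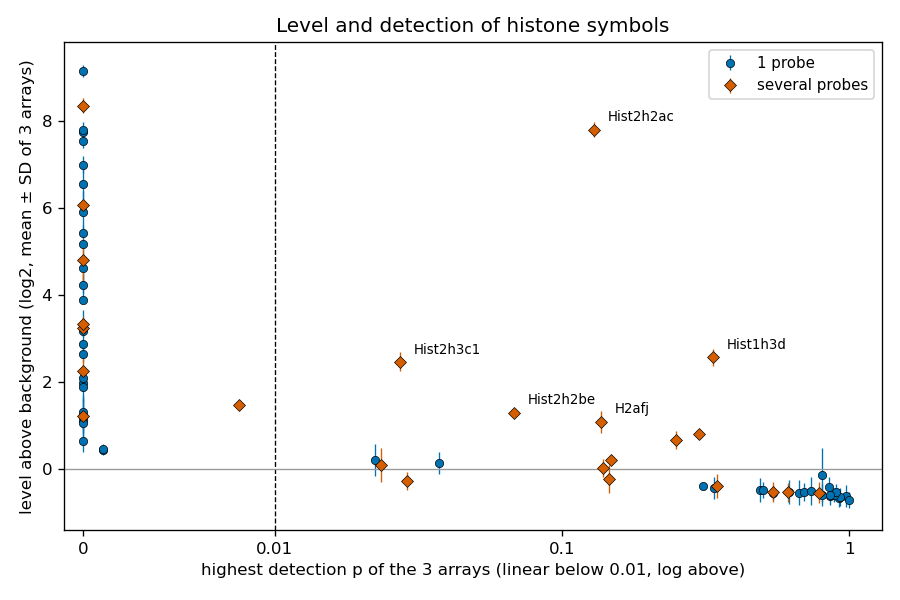
Level above background (log2, mean ± SD of 3 arrays) of the 72 histone symbols against the highest detection p of the 3 arrays, on an axis that is linear below 0.01 and logarithmic above, with symbols of 1 probe as circles and of several probes as diamonds. To the right of the dashed line at 0.01, the symbols with a level above 0.5 all have several probes, the highest being *Hist2h2ac* at 7.81. For symbols with 1 probe, the background level was set by the same detection cut, so their low levels there follow largely from that definition.

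The 5 germline-restricted symbols *Hist1h1t*, *Hist1h2aa*, *Hist1h2ba*, *H1foo*, and *H1fnt* were at background on all arrays, with levels between -0.66 and -0.48. Of 6 germ cell markers none passed on all arrays, and *Ddx4* passed on replicate 1.

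Across arrays, the signal of replicate 3 was the lowest in 33 of the 34 detected histone symbols and in 93.4% of all 6357 detected symbols, whose signals had not been normalized. After normalization, replicate 3 was 0.08 above the mean of the other arrays in the median detected histone symbol, and 0.03 above it over all detected symbols. The median SD of the normalized level between arrays was 0.16 for detected histone symbols and 0.17 for all detected symbols. For the 26 with 1 probe, the median standard error over beads of an array was 0.09 on the log2 scale, and the SD between arrays was larger than that error in 22 of them. As a check of the labelled tissue, detection on every array was found for 11 of 14 embryonic region markers, 8 of 9 visceral endoderm markers, and 2 of 6 extraembryonic ectoderm markers. The last 2 were *Cdx2* (log2 signals 9.88, 9.60, and 9.12) and *Rhox5* (9.81, 9.92, and 8.43), while *Elf5*, *Eomes*, *Ascl2*, and *Gcm1* passed on none. The median level above background was 1.19 for the embryonic region list, 3.68 for visceral endoderm, and -0.51 for extraembryonic ectoderm. The median signal of the visceral endoderm list ranged from 8.04 on replicate 3 to 9.31 on replicate 2, and its part in the histone values was not tested.

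Genes that make, carry, and place histones were examined as 4 lists. Of 16 measured genes for histone pre-mRNA processing, 7 were detected. They were *Lsm10*, a subunit of the U7 snRNP that cuts histone pre-mRNA, *Zfp473* and *Sympk* of the same machinery, *Upf1*, which acts in the decay of histone mRNA, and *Cdk2*, *Ccne1*, and *Ccne2* of the kinase that activates histone transcription. *Lsm10* had log2 signals of 8.06, 7.60, and 7.38, *Zfp473* of 7.42, 7.17, and 6.91, *Sympk* of 8.18, 7.85, and 7.69, and *Upf1* of 7.48, 7.38, and 7.30. The stem-loop binding protein gene *Slbp*, with 1 probe, was not detected on any array, with signals of 6.43, 6.47, and 6.33. *Lsm11*, *Npat*, *Casp8ap2*, *Cpsf3*, and *Cstf2t* also passed on no array, while *Cpsf2* passed on replicates 1 and 2, *Cstf2* on replicate 1, and *Eri1* (as *Thex1*) on replicate 3. Of the genes not detected on every array, only *Cstf2*, with 2 probes, passed limma, at a level of 2.64.

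Of 22 histone chaperone and deposition genes, 12 were detected. The large and middle subunits of the CAF-1 complex, which places H3 and H4 behind the replication fork, were both detected, *Chaf1a* with log2 signals of 9.57, 9.51, and 9.23 and *Chaf1b* with 9.41, 9.05, and 9.25. Further examples were *Asf1b*, with signals of 6.89, 6.87, and 6.87, and *Rbbp7*, with 9.95, 9.97, and 9.44. The H3.3 chaperone genes were divided: *Daxx* was among the detected genes, and *Hira*, *Ubn1*, *Cabin1*, and *Atrx* passed on no array, nor did *Asf1a*. *Rbbp4*, *Nap1l1*, *Nap1l4*, *Dek*, and *Ubn2* (as D130059P03Rik) passed on 1 or 2 arrays. All of them but *Ubn2* have several probes and passed limma, at levels of 1.38, 5.47, 5.25, and 2.38 in that order. *Ubn2*, with 1 probe, was at 0.04. By limma, 16 of the 22 genes were above background. Of 11 genes for exchange of H2A.Z, 8 were detected. The remodeller gene *Srcap* (as D030022P06Rik) had signals of 6.82, 6.72, and 6.59, the helicase genes *Ruvbl1* and *Ruvbl2* of 10.34, 9.90, and 9.90 and of 9.54, 9.19, and 9.27, and *Vps72*, an H2A.Z chaperone, of 7.99, 7.34, and 7.56. *Ep400*, *Actr6*, and *Kat5* did not pass on all arrays. Of these, *Ep400* and *Kat5*, each with 2 probes, passed limma, at levels of 2.82 and 0.38. *Actr6*, with 1 probe, did not and was at -0.46.

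Of 15 S-phase genes, 10 were detected. The sliding clamp *Pcna* had log2 signals of 7.69, 7.42, and 6.79, and the helicase genes *Mcm2*, *Mcm3*, and *Mcm4* of 10.67, 10.39, and 10.21, of 9.06, 8.64, and 8.43, and of 10.63, 10.49, and 10.12. *Rrm1*, *Rrm2*, *Pola1*, *Prim1*, and *Cdc6* did not pass on all arrays. Of these, *Rrm1*, *Rrm2*, and *Cdc6* have several probes and passed limma, at levels of 2.33, 1.87, and 1.35. *Pola1* and *Prim1*, with 1 probe, did not pass limma and were at -0.55 and -0.36. By limma, 12 of the 15 genes were above background. Over the lists, detection was found for 37 of the measured genes, against 20.6% of all symbols. The median level above background was 0.62 for pre-mRNA processing, 3.53 for chaperones, 2.82 for H2A.Z exchange, and 3.03 for S-phase genes, against -0.47 over all symbols.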

How the data were processed

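Per the labels, biotinylated cRNA was made from total RNA with a MessageAmp kit for Illumina arrays, and the submitters' processing notes name Partek. The authors deposited, for each array, log2 signals per symbol without normalization, the mean number of beads, a standard error over beads on the linear intensity scale, and a detection p-value. How probes were joined to symbols and any earlier background correction are not given in the sources used here. Probes per symbol were taken as the smallest number that makes bead numbers whole. Of the symbols with whole numbers, 685 had a detection p off the steps of 1 in 936 and were counted as having several probes. This left 21977 symbols with 1 probe, from which normexp was fitted (offset 16). Adjustment was by Benjamini-Hochberg over all symbols. Levels were quantile normalized, set against the background level of each array (4.68, 4.81, and 5.06), and tested with lmFit and eBayes, one-sided, at an adjusted p of 0.05. The fit gave every symbol the same standard error, 0.15, so a call depends on the mean level alone. The test was checked on simulated data. All 72 symbols matched RefSeq (GRCm38.p6). Every histone symbol is named. The first 4 detected genes of each other list are given with values, and some genes not detected on every array with levels. The symbols and lists were chosen with earlier results of these data known. Software: limma 3.58.1 under R 4.3.3, and Python 3.11.15 with scipy 1.17.1, pandas 2.3.3, numpy 2.4.6, and matplotlib 3.10.9.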

Additional observations from a re-analysis of the deposited data

How the results depend on the processing

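No paired analysis was possible because the 3 arrays form 1 group. The count of 34 detected histone symbols lay between 26 (symbols with 1 probe) and 47 (detection on at least 1 array) over the alternatives, and was 35 to 38 without a replicate. The cluster count of 26 lay between 21 and 38, and the variant count of 8 fell to 5 when symbols with several probes were left out, because *H3f3a*, *H3f3b*, and *H2afv* have several. The median level of cluster symbols, 0.64, became 1.27 with a background level set at the median of symbols with a detection p above 0.5, 0.22 without background correction, and 0.33 with an offset of 50, and ranged from 0.51 to 0.83 without a replicate. The median of variants, 3.18, became 3.81, 1.74, and 2.24 under these settings and ranged from 2.87 to 3.31 without a replicate. The cause of these moves was not tested. Histone symbols above background by limma numbered 38 to 51 against 41, with the same call for all 72 under median scaling, no background correction, and the offset of 50, and 10 more calls with the other background level. These 10 were *Hist1h1b*, *Hist1h2bc*, *Hist1h2bg*, *Hist1h4d*, *Hist1h4f*, *Hist1h4h*, *Hist1h4k*, *Hist2h2aa2*, *Hist4h4*, and *H2afy2*, so their calls turn on the background level chosen. Detected genes of the 4 other lists numbered 31 to 49 against 37. Signals near background limit what can be called.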
